A study of Mus musculus with 6 samples.

Results

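NRF2, the transcription factor encoded by Nfe2l2, and a set of genes it switches on were followed in fibroblasts of different DNA content. The set held 10 genes chosen by name: the regulators Nfe2l2 and Keap1, and the enzyme and transporter genes Nqo1, Hmox1, Slc7a11, Gclc, Gclm, Gsr, Txnrd1 and Srxn1. All 10 were measured, each through its only probe set with a single gene symbol, among 19938 genes in all. The arrays came from 2 lines of mouse embryonic fibroblasts (MEF), connective tissue cells grown out of embryos: a tetraploid line with abnormal DNA contents, called transformed in the series title, and a diploid line, the normal control. There were 3 arrays per line, and the cultures were near confluence in the same serum-containing medium. No drug, oxidant or genetic change of the NRF2 pathway is named for either line, and neither strain nor age of the embryos is stated. Since 1 line stood for each ploidy, the effects of ploidy, of transformation and of the particular line cannot be told apart. Whether the 3 samples per line came from separate cultures is not stated, so each p-value measures only the spread between these samples, which may be technical.

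In unstressed cells the KEAP1 protein holds NRF2 on a CUL3 ubiquitin ligase, which marks it for destruction. Oxidants and electrophiles modify KEAP1, NRF2 then builds up in the nucleus, pairs with a small MAF protein and binds antioxidant response elements, short DNA sites near genes for glutathione supply, thioredoxin reduction, quinone reduction and haem breakdown. BACH1 occupies the same sites with the same MAF partners and represses them, Hmox1 above all. Most control of NRF2 acts on the protein, which arrays do not measure.

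The values are log2 signals, so a difference of 1 is a doubling. Differences are tetraploid minus diploid throughout. A level counted as background on an array when it lay at or below the 95th percentile of 1027 olfactory receptor genes there, 7.18 to 7.41 on the tetraploid arrays and 7.01 to 7.26 on the diploid arrays. Between 10231 and 11319 genes lay above it on each array, and 9 of the 10 members did so on all 6 arrays. Across genes, arrays correlated at 0.923 to 0.940 within the tetraploid line, at 0.951 to 0.965 within the diploid line and at 0.835 to 0.886 between the lines. Of 14 fibroblast markers 12 lay above background on all 6 arrays, while Fap and Lum were at or below it on the tetraploid arrays. The summed linear signal of the 14 was 57469 to 68180 per tetraploid array and 86519 to 90993 per diploid array, and 5 of them were called lower. Of 20 macrophage and leukocyte markers, 2, 2 and 1 lay above background on tetraploid arrays 1 to 3 and 2, 6 and 12 on diploid arrays 1 to 3. Their summed linear signal was 919 to 1266 per tetraploid array and 1167 to 4502 per diploid array, and Lyz1 and Adgre1 stood at 0 on tetraploid array 1. Of 9 epithelial markers 3 and of 8 endothelial markers 1 were above background on all 6 arrays, and the endothelial sum was 731 to 816 per tetraploid array and 1086 to 1206 per diploid array. The part of these markers in the members' differences was not tested. In such bulk RNA fewer cells of a type and less RNA per cell cannot be told apart.

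The main question was whether the NRF2 programme differed between the tetraploid and the diploid line. No member passed the test: 0 of 10 were called by limma, the moderated test used over all genes, at an adjusted p below 0.05, where 13.8% of all genes were called, 6.08% higher and 7.75% lower. Among the 8640 genes above background on all 6 arrays the called share was 15.5%. Nqo1, Slc7a11, Gclm and Gsr came nearest. All were higher in the tetraploid line, by 1.54-fold to 2.67-fold, with an unadjusted p of 0.0156 to 0.0177 and an adjusted p of 0.0823 to 0.0889. They made 4 of 10 members with an unadjusted p below 0.05, all of them higher, against 14.4% of all genes with such a p and a higher level. Txnrd1 and Hmox1 had differences below 0. The members thus did not share a direction, with 7 differences above 0 and 3 below it and a median of 0.39, where the median over all genes was 0.07.

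**Figure D1:**
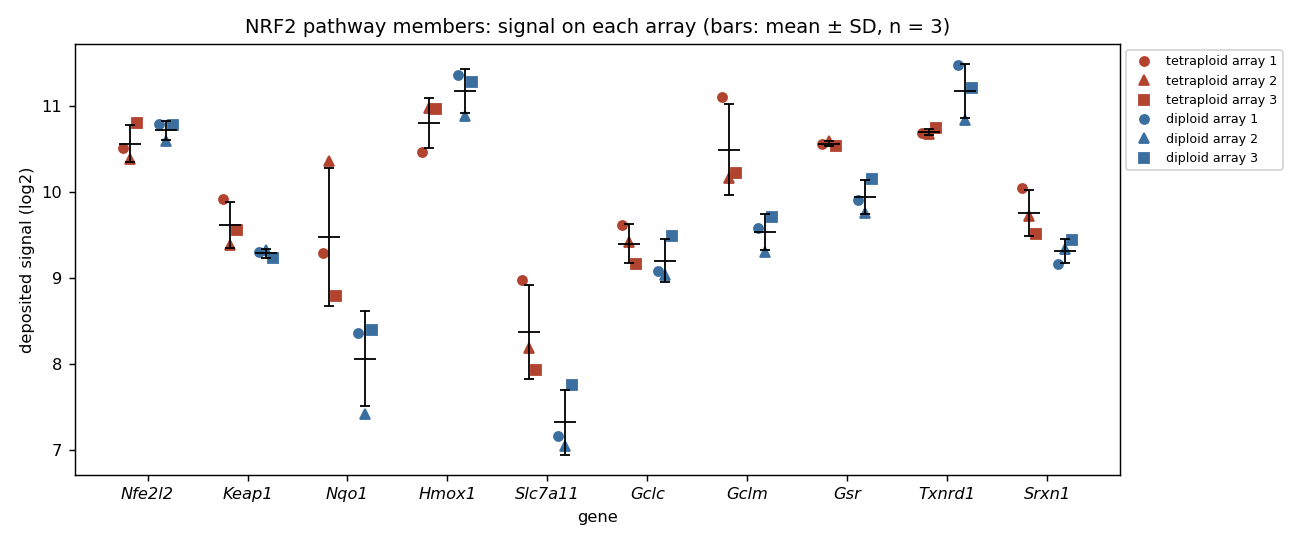
Deposited log2 signal of the 10 genes (vertical axis) on each array, tetraploid arrays in red at the left and diploid arrays in blue at the right of each gene, with symbols for array numbers and bars for mean ± SD (n = 3). The arrays of the lines do not overlap for Keap1, Nqo1, Slc7a11, Gclm, Gsr, Txnrd1 and Srxn1, and do for Nfe2l2, Hmox1 and Gclc.

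Separation of the arrays was frequent among the members and among all genes. In 7 of 10 members the arrays of 1 line all lay on the same side of those of the other, 6 with the tetraploid arrays above and 1 with them below. Over all genes the same held for 37.3%, with the tetraploid arrays above in 19.1% and below in 18.2%. Among genes above background on all 6 arrays it held for 49.3%. An exact two-sided permutation test of 3 arrays against 3 gave each of the 7 separated members p = 0.1, the smallest it can give.

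The regulators came first. Nfe2l2, the gene of NRF2 itself, stood at 10.51, 10.38 and 10.80 on tetraploid arrays 1 to 3, against 10.80, 10.59 and 10.78 on diploid arrays 1 to 3. The ranges overlapped and the difference was -0.16 (95% interval -0.64 to 0.33, limma adjusted p = 0.675). Keap1, the gene of the NRF2 inhibitor, stood at 9.92, 9.39 and 9.56 on the tetraploid arrays, against 9.31, 9.33 and 9.23 on the diploid arrays. The tetraploid arrays lay just above the diploid arrays, array 1 most, and the difference of 0.33 (interval -0.17 to 0.83) had an adjusted p of 0.353. For both genes the interval takes in 0, and it runs from 0.643-fold to 1.25-fold of the diploid level for Nfe2l2 and from 0.891-fold to 1.78-fold for Keap1.

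Nqo1 encodes a quinone reductase and is widely used as a readout of NRF2 activity. It stood at 9.29, 10.37 and 8.79 on the tetraploid arrays, against 8.36, 7.43 and 8.40 on the diploid arrays. Every tetraploid array was above every diploid array, yet the lowest tetraploid array, array 3, lay closer to the highest diploid array than to the other tetraploid arrays. The difference of 1.42 (interval 0.33 to 2.51) was the highest of the 10, a 2.67-fold higher level, and 3.17% of all genes had a higher one. Its SD was also the widest of the members in both lines, 0.80 over the tetraploid and 0.55 over the diploid arrays, and the adjusted p was 0.0889.

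Hmox1 encodes haem oxygenase 1, which splits haem into biliverdin, iron and carbon monoxide. It stood at 10.47, 10.98 and 10.97 on the tetraploid arrays, against 11.37, 10.89 and 11.28 on the diploid arrays. Diploid array 2 lay within the tetraploid range, and the difference was -0.37 (interval -0.95 to 0.20, limma adjusted p = 0.365). Macrophages that recycle red blood cells are known for high Hmox1. The summed macrophage signal was 1167, 2612 and 4502 on diploid arrays 1 to 3, in an order that Hmox1 did not follow, and its part in the Hmox1 level was not tested.

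Glutathione supply begins with Slc7a11, the cystine importer that brings in the scarce building block of glutathione. Slc7a11 stood at 8.98, 8.19 and 7.94 on the tetraploid arrays, against 7.16, 7.05 and 7.76 on the diploid arrays. On the diploid side 1 of 3 arrays exceeded background, so that its 2.06-fold higher level (difference 1.05, interval 0.24 to 1.85, adjusted p = 0.0885) was measured against diploid values partly at background. The fold was 1.94 once values below background were lifted to it. The partner chain of the importer, Slc3a2, differed by 0.17 (12.10 ± 0.15 in tetraploid and 11.93 ± 0.17 in diploid cells, SD, n = 3 each, adjusted p = 0.636).

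Gclc and Gclm encode the catalytic and the modifier subunit of glutamate-cysteine ligase, the enzyme of the rate-limiting step of glutathione synthesis. Gclm stood at 11.10, 10.16 and 10.22 on the tetraploid arrays, against 9.59, 9.31 and 9.72 on the diploid arrays. The groups did not overlap, tetraploid array 1 was highest, and the difference was 0.96 (interval 0.24 to 1.67, 1.94-fold, adjusted p = 0.0823). Gclc stood at 9.62, 9.42 and 9.17 on the tetraploid arrays, against 9.09, 9.04 and 9.49 on the diploid arrays. Here the groups overlapped, through diploid array 3, and the difference was 0.20 (interval -0.34 to 0.74, adjusted p = 0.624).

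Gsr encodes glutathione reductase, which regenerates reduced glutathione from its oxidised form with NADPH. It stood at 10.56, 10.59 and 10.54 on the tetraploid arrays, against 9.91, 9.76 and 10.16 on the diploid arrays. The tetraploid arrays were nearly equal, with an SD of 0.03, the narrowest of the 10 members, and all of them were above the diploid arrays. The difference was 0.62 (interval 0.16 to 1.08, 1.54-fold, adjusted p = 0.0825).

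Txnrd1 and Srxn1 serve the thioredoxin side of the response. Txnrd1, the cytosolic thioredoxin reductase, stood at 10.69, 10.68 and 10.74 on the tetraploid arrays, against 11.48, 10.84 and 11.22 on the diploid arrays. It was the 1 member with every tetraploid array below every diploid array, and the difference was -0.47 (interval -1.0 to 0.05, adjusted p = 0.211). Srxn1, sulfiredoxin, which repairs over-oxidised peroxiredoxins, stood at 10.05, 9.73 and 9.51 on the tetraploid arrays, against 9.17, 9.34 and 9.45 on the diploid arrays. The tetraploid arrays lay above, by a small margin between the lowest tetraploid and the highest diploid value, and the difference was 0.44 (interval -0.07 to 0.96, adjusted p = 0.230).

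**Figure D2:**
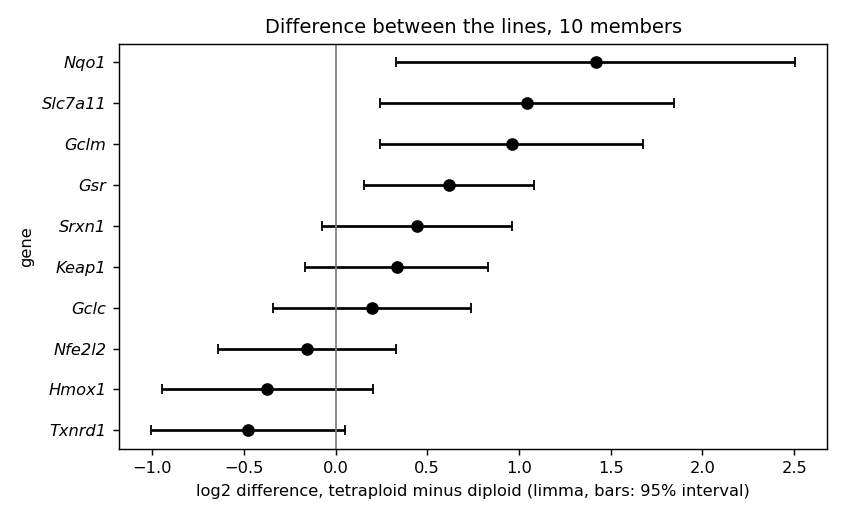
Log2 difference of each member, tetraploid minus diploid (horizontal axis), with the 95% interval of the limma fit, not adjusted for the number of genes. The intervals of Nqo1, Slc7a11, Gclm and Gsr lie above 0, and those of the other 6 genes take in 0.

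Genes with joint or opposed tasks were set against each other in 4 pairs, all of them members except Slc3a2. The difference between the lines was higher for Gclm than for Gclc by 0.76, for Nqo1 than for Hmox1 by 1.79, for Srxn1 than for Txnrd1 by 0.92, and for Slc7a11 than for Slc3a2 by 0.88. In each pair the within-array differences of the tetraploid arrays all lay above those of the diploid arrays. Each pair is given with the higher difference first, so that order sets the direction. Single genes were separated, in either direction, in 37.3% of all genes. The share among other gene pairs was not computed, so separation in these 4 pairs has no reference. The exact permutation p was 0.1 for each pair, the smallest that 3 arrays against 3 allow, and 0.1 after adjustment over the 4 pairs.

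The members varied among the arrays of a line. Tetraploid array 1 was the highest of its line for 5 members, Keap1, Slc7a11, Gclc, Gclm and Srxn1, and array 2 for Nqo1, Hmox1 and Gsr. Diploid array 2 was the lowest of its line for 8 of 10, all but Keap1 and Srxn1. Among the 8640 genes above background on all 6 arrays, 41.4% were highest on tetraploid array 1 and 42.6% lowest on diploid array 2. Member SDs were 0.03 to 0.80 in the tetraploid line and 0.05 to 0.55 in the diploid line, where the median gene of those 8640 had 0.28 and 0.14.

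The count of called members differed between settings, as did the count over all genes. In 4 of the 15 alternative settings members were called, and all of those were higher in the tetraploid line. With only the genes above the median level, Nqo1, Slc7a11, Gclm and Gsr had an adjusted p of 0.0300, 0.0299, 0.0271 and 0.0272, where 31.4% of all 9969 genes tested were called. When low values were lifted to background, Nqo1, Slc7a11, Gclm and Gsr had 0.0244, 0.0261, 0.0182 and 0.0116, where 19.8% of all genes were called. With an intensity trend and robust variances Slc7a11, Gclm and Gsr were called (0.0302, 0.0156 and 0.0221), where 20.1% of all genes were. With only the genes above the 25th percentile of level Nqo1, Slc7a11 and Gclm were called (0.0478, 0.0489 and 0.0454), where 21.9% of all 14953 genes tested were. No member was called in any of the 6 fits without 1 array, nor under quantile normalization, median centring or array weights. The same held with the mean of a gene's probe sets, which cannot change members that have a single probe set each. The sign of all 10 differences was the same in all 15 alternatives. The filters, the intensity trend, the replicate block and the mean of probe sets left every member's difference as reported, so its sign could not change there. Values raised to background altered only Slc7a11, and median centring shifted all differences alike.

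**Figure D3:**
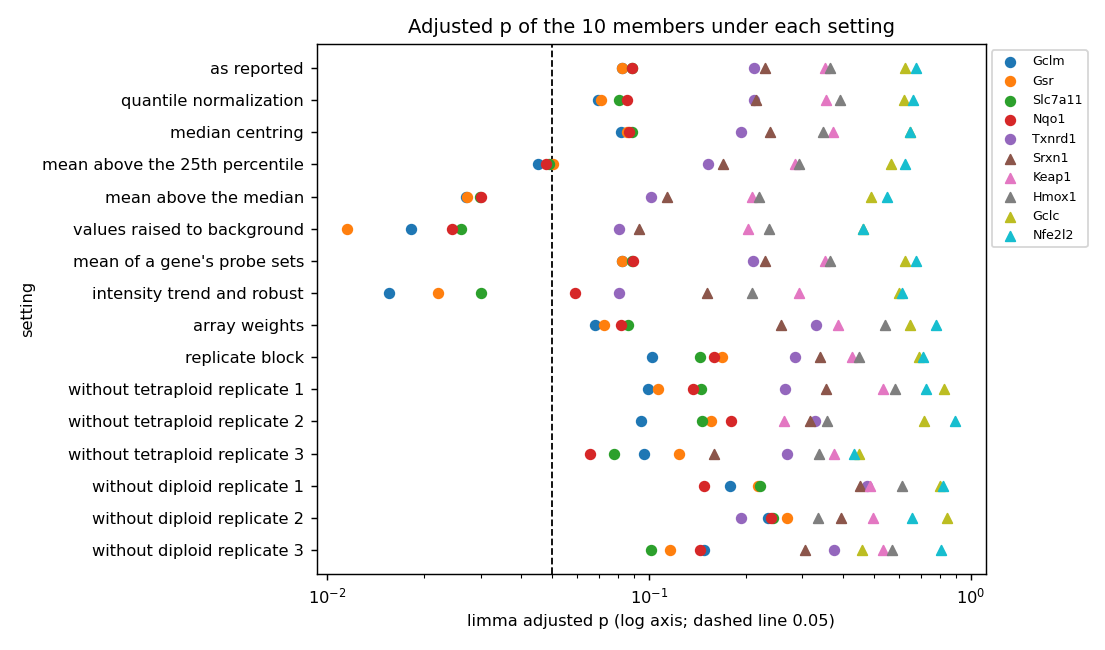
Adjusted p of the 10 genes (horizontal axis, log scale) under each setting (vertical axis), with a dashed line at 0.05. Gclm, Gsr, Slc7a11 and Nqo1 lie left of the line under some settings that filter dim genes, raise low values or model the variance by intensity, and the other 6 genes lie right of it under every setting.

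Promoters of the members were read for the core of the antioxidant response element, TGACNNNGC, on both strands. RefSeq windows of the mouse assembly GRCm38.p6, 300 bases long from 250 before to 50 after a start site, were at hand for 7 of the 10 members, Txnrd1 with 3 start sites. The element was found for 4 of the 7, against 14.0% of 27025 genes in the table. Each stretch is shown to let the sites of genes with estimated differences above and below 0 be compared. It runs 5' to 3' on the strand that carries the element, with the element in capitals and 10 bases on either side.
Gclm, chr3:122245413-122245441, minus strand: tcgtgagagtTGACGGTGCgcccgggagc
Srxn1, chr2:152105542-152105570, minus strand: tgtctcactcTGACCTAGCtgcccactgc
Txnrd1, chr10:82859104-82859132, minus strand: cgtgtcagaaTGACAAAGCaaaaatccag
Nfe2l2, chr2:75704885-75704913, minus strand: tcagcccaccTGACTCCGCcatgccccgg
The upstream end of the element lay 134 bases before the start site in Gclm, 92 before it in Txnrd1, 240 before it in Nfe2l2 and 28 after it in Srxn1. Gclm and Srxn1, with differences of 0.96 and 0.44, and Txnrd1 and Nfe2l2, with differences of -0.47 and -0.16, thus all held these letters close to a start site. The windows of Nqo1, Slc7a11 and Keap1 held no match, which says only that these letters are not in these 300 bases. Such a match is a description of the sequence and not a measured binding site.

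The promoter of Gclm, the member with the smallest adjusted p, is shown in full, from 250 bases before the start site to the base before it. It lies at chr3:122245307-122245556 on the plus strand, and capitals mark the element, which here reads in reverse complement.
Gclm promoter: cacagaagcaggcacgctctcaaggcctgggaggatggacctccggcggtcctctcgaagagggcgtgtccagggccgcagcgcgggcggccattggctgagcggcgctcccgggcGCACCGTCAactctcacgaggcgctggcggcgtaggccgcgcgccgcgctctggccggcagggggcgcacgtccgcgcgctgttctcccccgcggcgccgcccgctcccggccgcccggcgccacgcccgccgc

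Genes around the members were taken from 10 lists built by pathway. Of 145 measured genes, each counted once, 13 rose, 19 fell and 113 did not pass the limma test, a called share of 22.1% with a median difference of 0.11. Beside it stand 13.8% of all genes and 15.5% of the genes above background on all 6 arrays. Across the 10 lists the called share ran from 13.3% to 36.8%. The balance of rises and falls differed between settings, with 29 rises and 21 falls when values were raised to background. The count of 32 became 20 without tetraploid array 2 and 17, 15 and 17 without diploid arrays 1 to 3. The count over all genes, 2758, became 1589 without tetraploid array 2 and 1040, 839 and 1262 without diploid arrays 1 to 3. A fold is a lower bound, taken after lifting low values to background, for any gene that 1 line's arrays all placed at or below background.

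Partners and regulators of NRF2 had 1 rise, 2 falls and 19 of 22 not passing, a called share of 13.6% beside the 13.8% of all genes. Mafk, a small MAF partner, stood at 6.76, 7.06 and 7.10 on the tetraploid arrays, against 9.0, 8.92 and 8.87 on the diploid arrays. No tetraploid array exceeded background, and the level there was at least 3.11-fold lower (adjusted p = 0.00242). Bach1, the repressor at the same sites, stood at 8.60, 8.93 and 8.87 on the tetraploid arrays, against 9.80, 9.89 and 9.73 on the diploid arrays. It was lower by a difference of -1.0 (interval -1.46 to -0.54, adjusted p = 0.0193), without overlap. Leaving out any single diploid array ended this call (0.0617 to 0.0918). Mafg, another small MAF gene, had a difference of -0.65 (adjusted p = 0.0712), and Nfe2l1, a relative of NRF2, one of -0.54 (adjusted p = 0.142). Maff, also a small MAF gene, had one of -1.02 (adjusted p = 0.0530), with no tetraploid array above background. Under alternative settings Mafg was called lower in 3, and Nfe2l1 and Maff in 2 each.

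The ligase scaffold gene Cul3 differed by -0.04 (11.40 ± 0.58 in tetraploid and 11.45 ± 0.08 in diploid cells, adjusted p = 0.945). Sqstm1, whose protein p62 draws KEAP1 into autophagy, differed by -0.39 (adjusted p = 0.223). Palb2, a recombination gene whose protein can bind KEAP1, was called higher but lay below background on all 6 arrays, and raising values to background ended the call (adjusted p = 0.463).

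**Figure D4:**
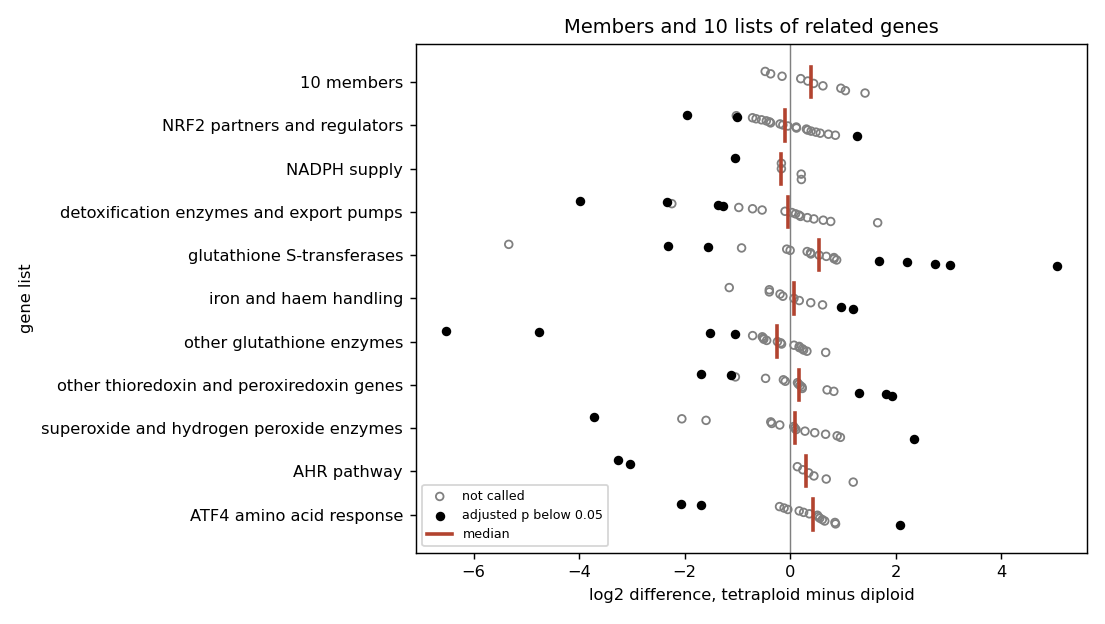
Log2 difference, tetraploid minus diploid (horizontal axis), of the 10 members and of the genes of 10 related lists (rows), with filled points for an adjusted p below 0.05, open points for the rest and red bars for medians. No member is filled, and the filled points of the lists lie on both sides of 0.

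Among genes of iron and haem handling, 2 of 11 rose and none fell, a called share of 18.2%. Blvrb, a biliverdin reductase, stood at 9.56, 9.06 and 9.09 on the tetraploid arrays, against 8.16, 7.95 and 8.02 on the diploid arrays, a 2.29-fold higher level (adjusted p = 0.0163). Fth1, the ferritin heavy chain that stores iron, stood at 13.37, 13.70 and 13.61 on the tetraploid arrays, against 12.56, 12.60 and 12.66 on the diploid arrays, a 1.94-fold higher level (adjusted p = 0.0215). In both genes all tetraploid arrays were above all diploid arrays. Leaving out any single diploid array ended both calls, as did leaving out tetraploid array 2 for Fth1 (adjusted p 0.0536 to 0.0761 for Blvrb and 0.0563 to 0.0932 for Fth1). Ftl1, the ferritin light chain, had a difference of -0.40 without a call (limma adjusted p = 0.219). It was called lower only with an intensity trend and robust variances (0.0423). Blvra, also a biliverdin reductase gene, had a difference of 0.61 without a call (limma adjusted p = 0.0813). It was called higher in 4 of the 15 alternative settings.

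Genes for NADPH and for detoxification, also known NRF2 targets, were called only as lower where they were called in the fit as reported. Of 5 measured NADPH genes 1 fell, Taldo1 of the pentose phosphate pathway, 2.06-fold lower (8.82 ± 0.29 in tetraploid and 9.87 ± 0.07 in diploid cells, adjusted p = 0.0250). Leaving out tetraploid array 2 or any single diploid array ended its call (0.0567 to 0.102). G6pdx had no probe set with its symbol alone and was not analysed here. Of 18 detoxification genes 4 fell, a called share of 22.2%, 14 did not pass and 6 were below background on all 6 arrays. The median difference of that list was -0.03, with 2 genes separated higher and 7 lower. The 2 were Osgin1 and Akr1b8, with differences of 1.66 and 0.77 (limma adjusted p = 0.0591 and 0.0879). Each was called higher in 3 alternative settings. Osgin1 exceeded background on 1 tetraploid array and on no diploid array.

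Ephx1, microsomal epoxide hydrolase, stood at 7.98, 8.38 and 7.69 on the tetraploid arrays, against 12.02, 11.99 and 11.98 on the diploid arrays. The gap was far wider than the spread in either line, a 15.8-fold lower level (adjusted p = 3.78e-04). Abcg2, an efflux pump, was 2.41-fold lower (adjusted p = 0.0342), a call lost on leaving out tetraploid array 2 or any single diploid array (0.0651 to 0.111). Aldh1a1 was called lower (4.44 ± 0.37 in tetraploid and 6.77 ± 0.52 in diploid cells, SD, n = 3 each, adjusted p = 0.00734) with no tetraploid array above background. No fold is given for it, since with values raised to background its difference was 0.06 and its adjusted p 0.716. Abcc3 was below background on all 6 arrays, and raising values to background ended its call too (adjusted p = 0.463).

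Other glutathione enzymes had 4 falls, no rise and 15 of 19 not passing, a called share of 21.1%. Gpx7, a peroxidase of the endoplasmic reticulum, stood at 4.19, 4.99 and 4.48 on the tetraploid arrays, against 9.18, 9.54 and 9.20 on the diploid arrays. It was at background in the tetraploid line and at least 4.05-fold lower (adjusted p = 3.33e-04). Gpx3, the secreted peroxidase, was at least 2.97-fold lower (adjusted p = 0.00601), and Glrx3, a glutaredoxin of iron-sulphur handling, 2.88-fold lower (adjusted p = 0.00679). Gss, which joins glycine to the product of glutamate-cysteine ligase, stood at 8.71, 8.59 and 7.86 on the tetraploid arrays, against 9.59, 9.32 and 9.39 on the diploid arrays. It was 2.07-fold lower (adjusted p = 0.0482), a call lost on leaving out any single array other than tetraploid array 1 (0.0679 to 0.149).

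Glutathione S-transferases, which attach glutathione to electrophiles, had 5 rises and 2 falls among 19, a called share of 36.8%. Mgst2 was at least 6.58-fold higher (9.88 ± 0.52 in tetraploid and 4.83 ± 0.50 in diploid cells, adjusted p = 7.87e-04). Gstm1 was 8.13-fold and Gstm3 6.73-fold higher, and Gstm4 at least 1.37-fold lower (adjusted p 0.00230, 0.00277 and 0.0224). The size for Gstm3 depended on the setting. Its log2 difference of 2.75 ran from 1.20 to 2.93 over the 15 alternatives, and the call was kept in all of them. The mu genes are related in sequence and their probe sets may share signal, which was not tested, so the split among them is uncertain. For Gstm4 the call was lost on leaving out tetraploid array 1 or any single diploid array (0.0598 to 0.0833) and with values raised to background (0.0907). Gstm6, also called higher, lost its call with values raised to background (0.463) and in 4 of the 6 fits without 1 array (0.0615 to 0.0918). Gstm7, called higher, and Gsto1, called lower, each lost theirs in 5 of the 6 fits without 1 array (0.0895 to 0.124 and 0.0733 to 0.0950).

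Other thioredoxin and peroxiredoxin genes had 3 rises and 2 falls among 16, a called share of 31.25%. Txn1, the substrate of thioredoxin reductase, differed by 0.23 (adjusted p = 0.522) and Prdx1 by 0.19 (adjusted p = 0.555). Among the sestrins, which are stress-induced regulators, Sesn3 was 3.53-fold higher (10.51 ± 0.16 in tetraploid and 8.69 ± 0.08 in diploid cells, adjusted p = 0.00282), Sesn1 3.80-fold higher (0.0229) and Sesn2 3.22-fold lower (0.0206). Txnrd3, a relative of Txnrd1, was at least 1.91-fold higher (adjusted p = 0.0378). Calls were lost on leaving out any single diploid array for Sesn1, Sesn2 and Txnrd3, without tetraploid array 3 for Sesn1, and without tetraploid array 1 or 2 for Txnrd3 (0.0561 to 0.133 over these fits).

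Enzymes that make or clear superoxide and hydrogen peroxide had 1 rise and 1 fall among 15, a called share of 13.3%. Nox4, an oxidase of fibroblasts that releases hydrogen peroxide, stood at 7.28, 5.36 and 5.22 on the tetraploid arrays, against 10.15, 9.62 and 9.25 on the diploid arrays. It was above background on 1 of the 3 tetraploid arrays, and the difference was -3.72 (13.2-fold lower, adjusted p = 0.00969), or 5.10-fold once low values were lifted to background. Xdh, xanthine dehydrogenase, was at least 1.79-fold higher (adjusted p = 0.0116), a call that ended with values raised to background (0.0770).

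Pathways that share a member with NRF2 were read beside it. The aryl hydrocarbon receptor also switches on Nqo1. Its gene Ahr stood at 6.34, 4.08 and 4.51 on the tetraploid arrays, against 8.08, 7.59 and 8.39 on the diploid arrays, and was at least 1.66-fold lower (adjusted p = 0.0183). Its target Cyp1b1 stood at 6.95, 8.0 and 8.57 on the tetraploid arrays, against 11.26, 11.11 and 10.94 on the diploid arrays, 9.59-fold lower (adjusted p = 0.00497). These were the 2 calls among 8 genes of that list, both opposite in direction to the difference of Nqo1. The rest of the list did not share that direction, and its median difference was 0.29. Tiparp and Arnt had differences of 1.19 and 0.68 without a call (limma adjusted p = 0.0804 and 0.0669). Each was called higher in 4 of the 15 alternative settings. In the list 4 genes lay below background on every array. The part of this receptor in the Nqo1 difference was not tested. For Ahr the call was lost on leaving out any single array other than tetraploid array 1 (0.0521 to 0.0664).

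ATF4, the factor of the amino acid response, also acts on Slc7a11. Of 16 genes of that response 1 rose and 2 fell, a called share of 18.75%. The median difference of the list was 0.44. In 7 of its genes the tetraploid arrays all lay above the diploid arrays, and in 2 they all lay below. Cth, which makes cysteine by transsulfuration, stood at 11.62, 10.61 and 11.18 on the tetraploid arrays, against 9.0, 8.94 and 9.20 on the diploid arrays, a 4.25-fold higher level (adjusted p = 0.00687). Nupr1 was 4.19-fold lower (adjusted p = 0.00794), Sesn2 was the other fall, and Atf4 itself differed by 0.61 (11.82 ± 0.24 in tetraploid and 11.21 ± 0.20 in diploid cells, adjusted p = 0.120). Atf4 was called higher in 3 of the 15 alternative settings. Slc7a11 and Cth, the importer of cystine and an enzyme that makes cysteine, were each separated with the tetraploid arrays above, the first without a call.

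**Figure D5:**
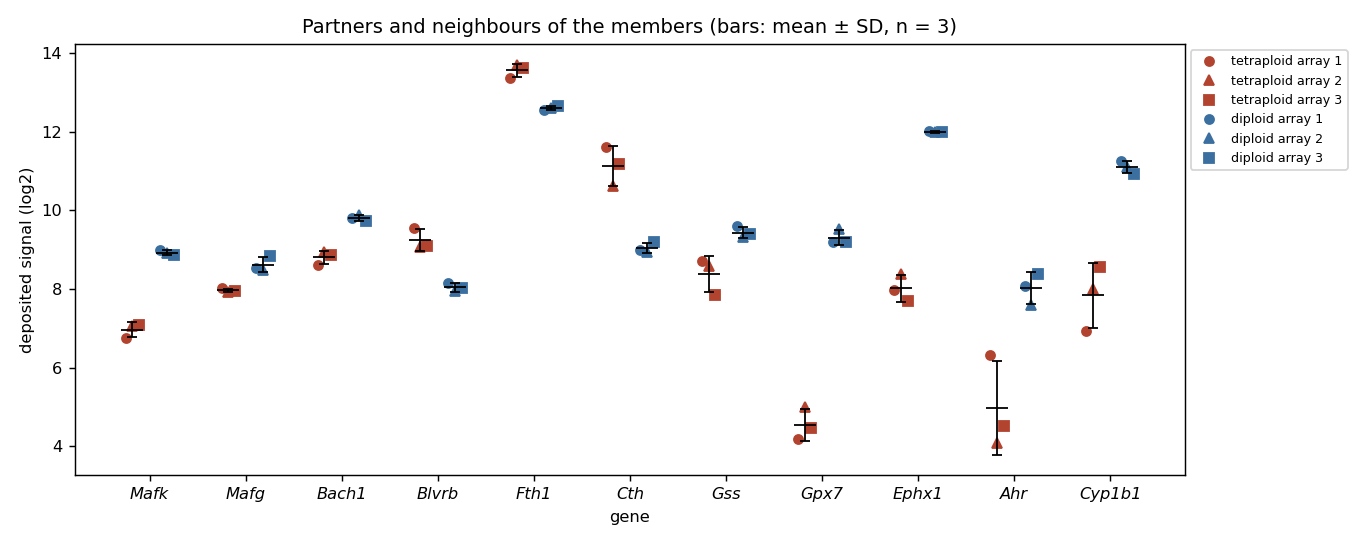
Deposited log2 signal (vertical axis) of 11 partners and neighbours of the members on each array, tetraploid in red at the left and diploid in blue at the right, with bars for mean ± SD (n = 3). Blvrb, Fth1 and Cth lie higher in the tetraploid line and the other 8 lower, and no gene shown has overlapping lines.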

How the data were processed

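Total RNA of 3 tetraploid and 3 diploid MEF samples was depleted of ribosomal RNA and hybridised to Affymetrix whole-transcript arrays, per the labels' protocols. The deposited values are log2 signals per probe set. Affymetrix Expression Console is the tool named in the submitters' processing notes, and its background correction and normalization are not given in the sources used here. Array medians differed by at most 0.0435 log2, and the values were used as deposited. Arrays give no depth, and their number limits the precision.

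Of 28944 probe sets 21789 carried 1 gene symbol, 1621 several and 5534 none. For each of 999 genes with several single-symbol probe sets, the one with the highest mean was kept, which left 19938 genes. Names came from the platform table, updated for 21698 probe sets through RefSeq (GRCm38.p6). The test was limma's moderated one (version 3.58.1, lmFit with eBayes under R 4.3.3, two-sided, Benjamini-Hochberg over all 19938 genes, called below 0.05), and the code was tested on simulated data. Errors beside means are SDs over 3 arrays, and intervals are 95% intervals of the fit.

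All members were named. From each related list the called genes with the largest difference were named, at most 4, together with genes that act directly with a member. Members and lists were chosen with earlier results of these data known. The background level was too, so neither is independent support. Both lines use the same replicate numbers, which the labels do not call pairs, and deviations of same-numbered arrays from their line's mean correlated at 0.100, 0.0309 and -0.0462.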

Additional observations from a re-analysis of the deposited data

How the results depend on the processing

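The count of called members was 0 as reported. It was 3 with genes above the 25th percentile of level, 4 with genes above the median, 4 with values raised to background and 3 with an intensity trend and robust variances. The filters test fewer genes, while the settings with raised values and with an intensity trend test all 19938. Under the filters the unadjusted p was lower too, for Gclm 0.0094 and 0.0066 by limma against 0.0156 as reported, at the same difference. The cause was not tested. The count of called members was 0 in each of the 6 fits without 1 array. The count over all genes, 2758 of 19938, was 3271 of 14953, 3135 of 9969, 3947 of 19938 and 4011 of 19938 under the same 4 settings in that order, 1647 with the replicate block and 839 to 2522 without 1 array. Aldh1a1, called lower, had a difference of 0.06 with values raised to background. The count of the related lists, 32, was 50 with values raised to background, 55 with an intensity trend and robust variances, and 15 to 34 without 1 array. The 32 were 13 higher and 19 lower, the 50 were 29 and 21, and the 55 were 31 and 24. Rises also outnumbered falls with genes above the 25th percentile of level (22 and 18) and above the median (27 and 16). In every other setting falls outnumbered rises. The replicate block called 0 members and 23 genes of the lists, and since the numbers do not pair the samples it was not used. Of the 32 called genes of the lists 15 kept the call in all 6 fits without 1 array and 13 under all alternatives that tested them. Signal near background limits Slc7a11 in the diploid line, and 19 of the 145 list genes lay below background on all 6 arrays.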
